A study of Mus musculus with 20 samples.

Results

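The comparison described here asked what immune checkpoint inhibitors did to the hippocampal transcriptome of mice that carried a melanoma. It set the 5 libraries titled as melanoma plus ICI (immune checkpoint inhibitors) against the 5 titled as melanoma, which are 10 of the 20 libraries of the study, and the members were taken by title. All mice were adult male wild-type animals of 10 to 12 weeks. Each library came from 1 frozen hippocampus of 1 mouse. Both groups received D4M-3A.UV2 cells, a syngeneic melanoma line, into the skin on both sides (500000 cells, where the labels do not say whether per side or in all), and the tumours had 1 week to engraft. The melanoma group then received isotype-matched control antibody. The treated group was instead given 2 blocking antibodies for 3 weeks: anti-CTLA-4 (3 injections weekly, each of 1 mg) and anti-PD-1 (2 injections weekly, each of 200 µg). The brains of both groups were collected 72 hours after the last injection. The tumour-free groups, control with isotype antibody and ICI with both checkpoint antibodies, also held 5 libraries each and served for the test of whether the effect depended on the tumour. The tumour came from 1 transplanted line and the antibodies were injected into the abdomen. Tumour size, steroid levels and the hour of harvest are not given in the sources used here.

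CTLA-4 and PD-1 are inhibitory receptors of T cells, and antibodies that block them release T cells against tumours. The hippocampus lies behind the blood-brain barrier, whose endothelial cells are sealed by claudin-5 and neighbouring junction proteins and carry selective transporters. Circulating signals reach it through that barrier, through the choroid plexus and meninges, and as steroid hormones. The hippocampus is rich in the glucocorticoid receptor and the mineralocorticoid receptor, and glucocorticoids, the hormones of the stress axis, switch on a compact set of genes in its neurons, glia and vessels.

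The libraries held 22198058 to 24201146 counts in melanoma and 22408042 to 25735149 in melanoma plus ICI. Hippocampal markers were measured in all 10 libraries, and least in melanoma plus ICI replicate 3. The score of a marker list, the mean log2 CPM (counts scaled to a common library size) of its tested genes, lay between 4.72 and 6.43 for field CA1 and between 3.64 and 5.73 for the dentate gyrus. The lowest of both were in that library, whose dentate gyrus score was close to its mean over all tested genes (3.52) and below its neocortex score (5.48). Neighbouring tissue was unequal. The striatum score was 5.10, 2.75, 6.46, 3.14 and 5.61 in melanoma replicates 1 to 5 and 3.01, 3.52, 5.33, 3.73 and 3.15 in melanoma plus ICI. All 11 striatal markers were lower in melanoma plus ICI, by a median log2 fold change of -1.11. Without melanoma plus ICI replicate 3 that median was -1.75. The choroid plexus score ran from 0.689 to 5.28 in melanoma and from 0.897 to 6.32 in melanoma plus ICI, and all 13 of its markers were higher in melanoma plus ICI, by a median of 1.5. All 13 meningeal markers were also higher, by a median of 0.66. Melanoma plus ICI replicate 3 had the lowest dentate gyrus and CA1 scores of the 10 libraries, at 3.64 and 4.72, and the highest neocortex score, at 5.48. Melanoma plus ICI replicates 1 and 4 lay at the ends of the first principal component, at -52.7 and 48.3, and the others between -26.3 and 26.2. On the second, melanoma plus ICI replicate 3 lay at 52.6 and the other 9 libraries between -34.4 and 21.5. In bulk tissue, fewer cells of a type and less RNA per cell cannot be told apart.

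**Figure D1:**
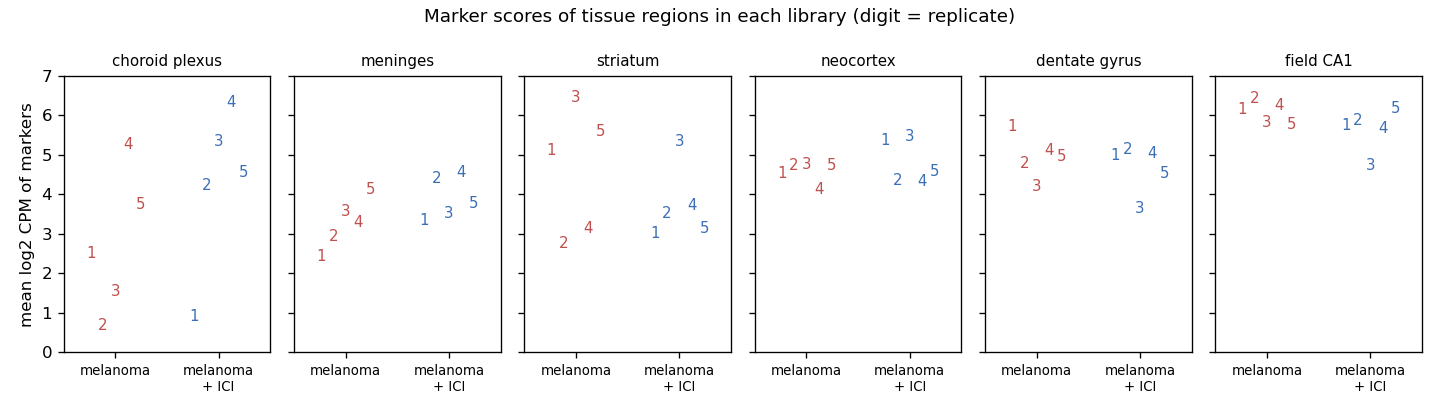
Marker scores (mean log2 CPM of the tested markers, y axis) of 6 regions in the melanoma and melanoma plus ICI libraries; each digit is the replicate number of 1 library. Melanoma replicates 1, 3 and 5 and melanoma plus ICI replicate 3 lie above 5 for striatum, and melanoma plus ICI replicate 3 is lowest for the dentate gyrus and field CA1.

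No gene passed the threshold over the whole transcriptome. Of 18427 genes tested with edgeR's quasi-likelihood test, 0 had an adjusted p under 0.05 in either direction (0% higher and 0% lower), and DESeq2 also gave 0. At an unadjusted edgeR p under 0.05 there were 485 higher genes (2.63% of those tested) and 528 lower genes (2.87%). The 2 groups of 5 libraries did not overlap for 117 higher genes (0.635%) and 166 lower genes (0.901%). DESeq2 gave 1124 genes at an unadjusted p under 0.05 (2.9% higher and 3.2% lower). Limma voom with quality weights, which gives less weight to libraries that vary more, called 25 genes, 3 higher (0.0163%) and 22 lower (0.119%). Leaving out melanoma plus ICI replicate 3 gave 12 genes past the edgeR threshold, 1 higher (0.00538% of 18596 genes tested) and 11 lower (0.0592%), while leaving out any other of the 10 libraries gave 0. In the fit with all libraries the smallest edgeR adjusted p of any gene was 0.592 and the next 0.825, so the values below describe differences that did not pass, with their standard errors (SE), unless a passing adjusted p is printed.

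The glucocorticoid-responsive genes made up the clearest pattern. The list, like the others, was chosen with earlier results of these data known, so its shares beside those of all genes are a description. Of the 18 listed genes, all were tested, 17 had lower means in melanoma plus ICI than in melanoma and 1 was higher. By edgeR 10 of the 18 were lower at an unadjusted p under 0.05, against 2.87% of all genes tested, and 0 were higher. The median log2 fold change of the list was -0.42, beside 0.02 over all genes tested. For 11 of the 18 genes at least 4 of the 5 melanoma plus ICI libraries lay below every melanoma library, which held for 4.59% of all genes. In most of these genes melanoma plus ICI replicates 2, 4 and 5 were low and replicate 3 was as high as the melanoma libraries or higher. The melanoma group was also high compared with the tumour-free controls: for 8 of the 18 genes all 5 melanoma libraries exceeded all 5 control libraries, against 0.554% of all genes.

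The promoters of 4 of these genes are shown because the glucocorticoid receptor binds DNA as a pair of subunits at palindromic elements, and the list was chosen for that hormone. The windows are the 250 bases before a RefSeq start site on GRCm38.p6, read along the gene, and the capitals mark every match to the letters GNACANNNTGTNC on either strand. That motif was chosen after the expression values had been seen. The Sgk1 window is chr10:21993640-21993889 (+), the fifth of 6 listed start sites of that gene. The Mt1 window is chr8:94178839-94179088 (+). The Map3k6 window is chr4:133240568-133240817 (+). The Hif3a window is chr7:17062428-17062677 (-), and it is printed in lower case throughout because the letters do not occur in it.
Sgk1: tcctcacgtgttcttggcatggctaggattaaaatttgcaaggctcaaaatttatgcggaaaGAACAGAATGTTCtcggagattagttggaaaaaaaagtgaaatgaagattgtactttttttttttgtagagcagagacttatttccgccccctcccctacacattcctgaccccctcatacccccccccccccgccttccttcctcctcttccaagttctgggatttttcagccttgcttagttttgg
Mt1: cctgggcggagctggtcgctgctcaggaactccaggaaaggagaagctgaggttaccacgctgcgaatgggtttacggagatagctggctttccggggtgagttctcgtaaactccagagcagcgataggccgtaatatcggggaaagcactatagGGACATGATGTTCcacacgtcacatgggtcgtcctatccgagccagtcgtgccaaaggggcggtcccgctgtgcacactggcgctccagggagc
Map3k6: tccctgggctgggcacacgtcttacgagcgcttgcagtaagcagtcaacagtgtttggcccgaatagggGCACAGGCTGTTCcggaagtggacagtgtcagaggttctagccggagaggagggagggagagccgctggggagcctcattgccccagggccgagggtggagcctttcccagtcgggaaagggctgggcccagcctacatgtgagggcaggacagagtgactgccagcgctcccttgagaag
Hif3a: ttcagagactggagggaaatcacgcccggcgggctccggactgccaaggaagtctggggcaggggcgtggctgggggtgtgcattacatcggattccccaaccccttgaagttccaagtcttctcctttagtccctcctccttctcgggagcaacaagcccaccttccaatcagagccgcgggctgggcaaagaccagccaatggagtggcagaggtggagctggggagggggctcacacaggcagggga
The letters searched read the same on both strands, while the matched bases need not. The match ends 175 bases before the start site in Sgk1, 81 in Mt1 and 168 in Map3k6. Of the 18 listed genes 16 have windows in the RefSeq table, and 3 of the 16 hold the letters, while 119 of 27025 genes in that table do (0.44%). A gene with more windows, such as Sgk1 with 6, had more places to match. The list was chosen for the hormone and the motif after the values were seen, so these shares are no test. The longer palindrome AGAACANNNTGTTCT occurs in 3 of the 27025 genes, and Sgk1 is 1 of them. A match here is a description of letters and not of binding.

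Hif3a (chromosome 7, 17031507 to 17062427), a member of the hypoxia-inducible factor family, had the smallest unadjusted p of the list. Its level was 25.1, 12.6, 12.6, 13.8 and 15.8 CPM in melanoma replicates 1 to 5 and 3.78, 4.16, 15.6, 2.92 and 3.38 CPM in melanoma plus ICI. Apart from replicate 3, the treated libraries lay at under 5 CPM, below the lowest control library at 4.47 CPM, and melanoma replicate 1 was the highest of all. The log2 fold change was -1.42 (SE 0.37, adjusted p = 0.825 by edgeR). Without melanoma plus ICI replicate 3 it was -2.16, with an edgeR adjusted p of 9.41e-04. With the 4 tissue scores (choroid plexus, meninges, striatum and neocortex) as covariates the log2 fold change was -1.72.

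Plin4 (chromosome 17, 56100591 to 56109803), a coat protein of lipid droplets, had the largest log2 fold change of the list, -1.72 (SE 0.52). It measured 47.7, 20.4, 19.5, 23.8 and 17.7 CPM in melanoma and 4.23, 3.54, 21.6, 5.77 and 4.0 CPM in melanoma plus ICI, so 4 of the 5 treated libraries lay far below the melanoma range and replicate 3 lay inside it. Plin4 overlaps Hdgfl2 on the opposite strand, which has 872% of its counts, and strand use is not given in the sources used here. Reads of the 2 genes therefore may not be separated.

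Arrdc2, an arrestin-domain protein, measured 31.5, 22.6, 27.9, 30.0 and 30.8 CPM in melanoma and 15.4, 8.31, 40.0, 10.8 and 10.1 CPM in melanoma plus ICI. Replicate 3 was the highest of the 10 libraries and the other 4 treated libraries were the lowest, near the control range of 10.6 to 15.6 CPM. Its log2 fold change was -0.76 (SE 0.31), and -1.35 without replicate 3, where it passed with an edgeR adjusted p of 0.00516. Map3k6, a kinase of the stress-activated MAP kinase cascade, followed the same order, with 11.2, 9.05, 6.85, 8.02 and 9.29 CPM in melanoma and 5.50, 3.18, 11.6, 3.59 and 2.85 CPM in melanoma plus ICI. The log2 fold change of Map3k6 was -0.73 (SE 0.30) with all libraries and -1.22 without replicate 3 (edgeR adjusted p = 0.0396).

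Ddit4, an inhibitor of the mTOR growth pathway, measured 114.5, 116.3, 118.7, 127.5 and 135.1 CPM in melanoma and 94.2, 61.7, 131.6, 65.8 and 72.7 CPM in melanoma plus ICI. The 4 low treated libraries lay near the control range of 63.5 to 88.3 CPM, and the log2 fold change was -0.52 (SE 0.17). Fkbp5 (chromosome 17, 28399095 to 28517524), a co-chaperone that lowers the hormone affinity of the glucocorticoid receptor, was the only list member whose groups did not overlap, beside 0.901% of all genes lower without overlap. It measured 103.9, 67.5, 66.3, 90.2 and 68.2 CPM in melanoma and 45.8, 59.5, 50.2, 58.0 and 57.1 CPM in melanoma plus ICI (log2 fold change -0.55, SE 0.17). In this gene replicate 3 was as low as the rest of its group. Its melanoma libraries overlapped the control range of 49.3 to 81.9 CPM, and with the 4 tissue scores as covariates its log2 fold change was smaller, at -0.28.

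Sgk1, a kinase named for its induction by serum and glucocorticoids, and Tsc22d3, the anti-inflammatory leucine zipper protein GILZ, had large differences between means but also 2 high treated libraries. Sgk1 measured 137.5, 165.3, 185.0, 200.2 and 198.9 CPM in melanoma and 152.0, 41.3, 255.8, 58.3 and 52.3 CPM in melanoma plus ICI (log2 fold change -0.66, SE 0.39). Tsc22d3 measured 96.6, 98.7, 92.0, 89.3 and 101.4 CPM in melanoma and 85.9, 38.1, 126.9, 42.3 and 52.7 CPM in melanoma plus ICI (log2 fold change -0.47, SE 0.24). In both genes replicate 3 was above every melanoma library, replicate 1 was inside the melanoma range for Sgk1 and just below it for Tsc22d3, and replicates 2, 4 and 5 lay within or below the control range. With the tissue scores as covariates, Tsc22d3 had a log2 fold change of -0.72.

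**Figure D2:**
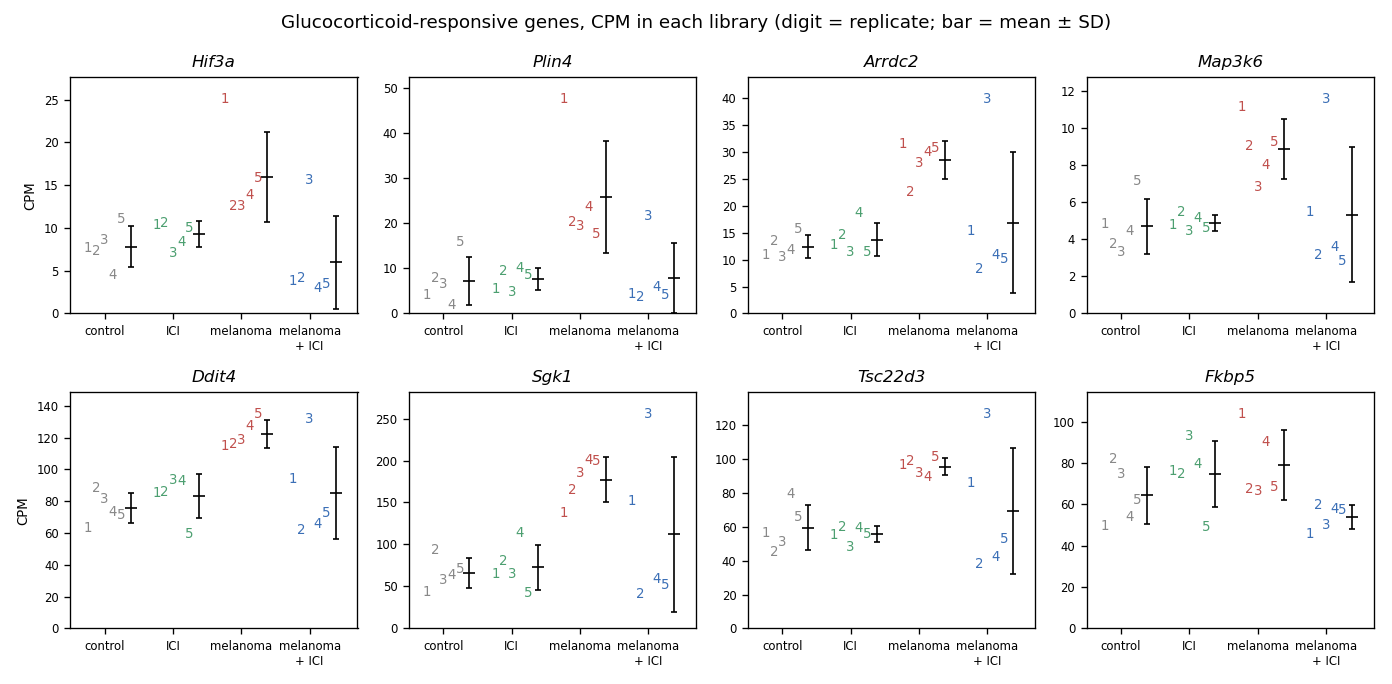
CPM (y axis, from 0) of 8 glucocorticoid-responsive genes in all 20 libraries by group; digits are replicate numbers and the black bars are means ± SD over 5 libraries. In Hif3a, Plin4, Arrdc2 and Map3k6 the melanoma libraries and melanoma plus ICI replicate 3 are high while the other 4 melanoma plus ICI libraries are low; in Fkbp5 all 5 treated libraries are low.

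The remaining members had smaller differences. Sult1a1 (a sulfotransferase, -0.47, SE 0.17), Mt2 and Mt1 (metallothioneins, -0.38 and -0.34, SE 0.16 and 0.15) and Errfi1 (an inhibitor of the EGF receptor, -0.31, SE 0.12) complete the 10 lower members. Sult1a1 overlaps Sgf29 on the opposite strand, which has 124.5% of its counts. Pdk4, which shifts mitochondria from glucose to fat oxidation, had 9.33 to 11.5 CPM in 4 treated libraries and 21.0 CPM in replicate 3, against 12.5 to 18.6 CPM in melanoma (log2 fold change -0.32, SE 0.19). Zbtb16 (-0.38, SE 0.24), Klf9 (-0.17, SE 0.17) and Cdkn1a (-0.02, SE 0.33) were inside their spread between replicates. The receptors themselves did not share the pattern. Nr3c1, the glucocorticoid receptor, had a log2 fold change of 0.15 (SE 0.10), and Nr3c2, the mineralocorticoid receptor, one of -0.35 (SE 0.32) with its lowest value, 39.1 CPM, in melanoma plus ICI replicate 3.

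The direction of the list held across the ways of processing that were run, and its size depended on replicate 3. Leaving out any 1 of the 10 libraries gave medians from -0.54 to -0.38 and from 5 to 12 lower members at an unadjusted edgeR p under 0.05. Without melanoma plus ICI replicate 3, 12 members were lower at that p, against 4.74% of all genes, and 4 members passed the adjusted threshold (Hif3a, Arrdc2, Map3k6 and Plin4), out of 11 lower genes in the whole table. The median was -0.50 with the 4 tissue scores as covariates, with 11 lower members at an unadjusted p under 0.05 against 5.31% of all genes (3.97% were higher). Without the 4 libraries whose striatum score exceeded 5 it was also -0.50, with 11 lower members against 2.38% of all genes. Under voom 7 members passed the adjusted threshold out of 22 lower genes. With the dentate gyrus and CA1 scores, which were lowest in replicate 3, as covariates the median was -0.57.

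**Figure D3:**
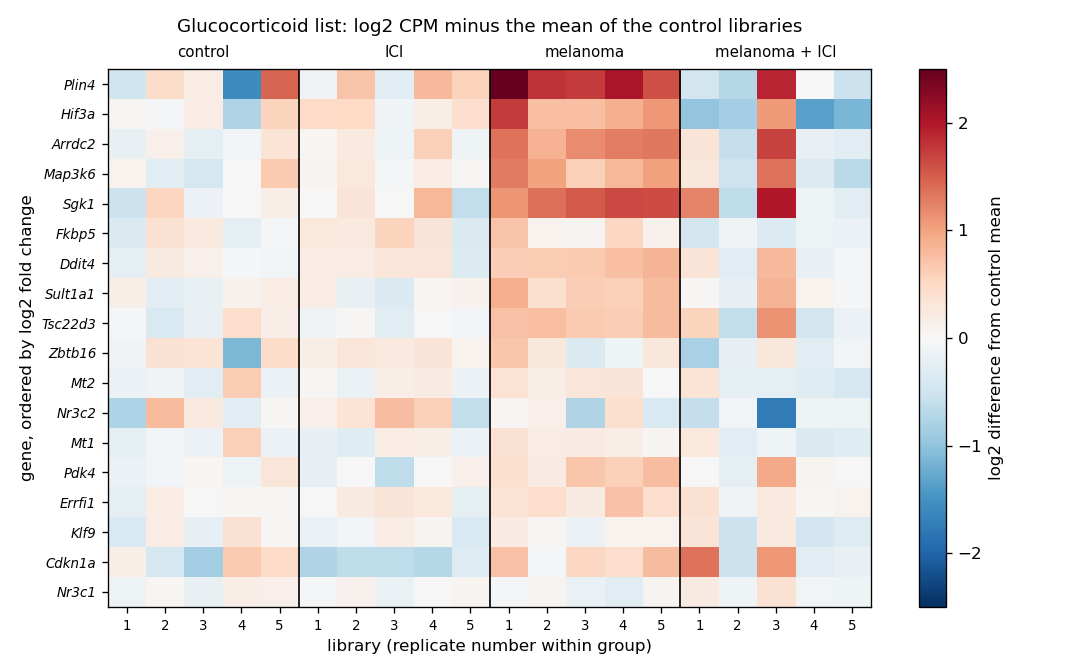
Log2 CPM of the 18 glucocorticoid-responsive genes (rows, ordered by log2 fold change) in the 20 libraries (columns, replicate numbers within groups), minus the mean of the 5 control libraries; red is higher and blue lower than control. The melanoma columns are red in the upper rows, melanoma plus ICI columns 2, 4 and 5 are near or below 0, and column 3 resembles the melanoma columns for most genes.

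In tumour-free mice the list had a median log2 fold change of 0.07, with 10 members higher and 8 lower, and 1 lower (Cdkn1a) and 0 higher at an unadjusted edgeR p under 0.05, against 3.15% and 2.08% of all genes. The difference between the effects with and without a tumour was tested as an interaction. No gene passed it by edgeR (0% in each direction), while 47 passed with DESeq2 and 19 with voom. By edgeR 1103 genes (5.99%) were positive and 789 (4.28%) negative at an unadjusted p under 0.05. Of the 18 list members 5 were negative and 0 positive. They were Hif3a (-1.67), Fkbp5 (-0.76), Ddit4 (-0.66), Errfi1 (-0.43) and Plin4 (-1.80), with edgeR adjusted p between 0.476 and 0.485. Other lists had interaction counts of that order or above, with 8 of 26 postsynaptic and 5 of 19 clock genes negative and 10 of 16 MHC class I and 7 of 20 reactive microglia genes positive. Of 27 endothelial and blood-brain barrier genes 9 were positive and 1 negative.

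The genes that passed without melanoma plus ICI replicate 3 included others with the same order of libraries. Passing only without that library favours genes in which it stood apart, so this order is partly built in. Etnppl, an astrocyte enzyme that breaks down phosphoethanolamine, measured 48.0, 29.6, 38.3, 41.7 and 31.9 CPM in melanoma and 19.2, 19.2, 46.1, 18.8 and 12.1 CPM in melanoma plus ICI (log2 fold change -0.71 with all libraries, -1.12 without replicate 3, edgeR adjusted p = 0.0171). Slc2a1, the glucose transporter of the blood-brain barrier, measured 160.9, 132.7, 141.1, 139.3 and 156.4 CPM in melanoma and 115.8, 81.9, 216.1, 94.6 and 85.2 CPM in melanoma plus ICI (-0.30 with all libraries, -0.62 without replicate 3, edgeR adjusted p = 0.0394). In both, 4 treated libraries lay below all melanoma libraries and replicate 3 lay near or above the top. Ciart, a circadian repressor, and Kirrel2, a cell adhesion protein, also passed, at -0.74 and -0.76. The single higher gene was Fabp7, a fatty acid binding protein of astrocytes and neural progenitors, at 9.88, 8.19, 14.0, 10.6 and 11.1 CPM in melanoma and 24.3, 31.0, 6.43, 28.0 and 22.9 CPM in melanoma plus ICI. Its order was the mirror image, with replicate 3 the lowest of all 10 libraries and the other 4 treated libraries the highest. Its log2 fold change was 1.07 (SE 0.30) with all libraries and 1.31 without replicate 3 (edgeR adjusted p = 0.0171). The other genes that passed were Lao1 (-3.58), which was under the count filter with all libraries, Mfsd2a (-0.64) and 9630041A04Rik (-2.04). The last had the smallest p of all with every library included (-1.78, SE 0.33, edgeR adjusted p = 0.592), at under 0.6 CPM in each of the 10 libraries.

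Several circadian clock genes had the same order of libraries. Of 19 genes, all tested, 7 were higher and 12 lower, with 0 in either direction at an unadjusted edgeR p under 0.05. At that p 7 were lower with the tissue scores as covariates (5.31% of all genes), 8 without melanoma plus ICI replicate 3 (4.74%), where Ciart passed, and 10 with voom (7.85%). Per1, a clock gene that glucocorticoids also induce, measured 148.5, 181.7, 203.3, 153.7 and 186.6 CPM in melanoma and 141.4, 97.7, 249.2, 90.0 and 111.6 CPM in melanoma plus ICI (log2 fold change -0.34, SE 0.23). Per3 had 63.7 to 86.7 CPM in melanoma, and 40.9 to 55.5 CPM in 4 treated libraries beside 96.9 CPM in replicate 3 (-0.41, SE 0.20). Arntl, which is expressed in the opposite phase to the Per genes, was at 0.21 (SE 0.10).

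Of 29 listed endothelial and blood-brain barrier genes 27 were tested, 16 were higher and 11 lower, with 6 higher (Cldn5, Lsr, Bsg, Vcam1, Kdr and Icam1) and 1 lower (Mfsd2a) at an unadjusted edgeR p under 0.05, against 2.63% and 2.87% of all genes. The median was 0.10, and it ran from 0.02 to 0.16 with 1 library left out. The balance changed with the setting: 2 were higher and 5 lower with the 4 tissue scores as covariates (3.97% and 5.31% of all genes), 6 and 7 without melanoma plus ICI replicate 3 (4.41% and 4.74%), and 5 and 7 with voom (7.05% and 7.85%). Cldn5 (chromosome 16, 18776847 to 18778260), the main claudin of brain vessels, measured 22.8, 22.8, 21.0, 21.2 and 19.9 CPM in melanoma and 41.3, 35.2, 22.8, 33.4 and 35.7 CPM in melanoma plus ICI. The groups did not overlap, by a narrow margin at replicate 3, and the log2 fold change was 0.65 (SE 0.18). With the 4 tissue scores as covariates Cldn5 kept 0.64.

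Lsr (chromosome 7, 30957770 to 30973464), a receptor of junctions where 3 cells meet, measured 4.37, 4.74, 4.64, 4.5 and 4.3 CPM in melanoma and 5.46, 6.07, 5.88, 6.63 and 5.34 CPM in melanoma plus ICI. All treated libraries lay above all melanoma libraries (0.38, SE 0.12), and with the tissue scores as covariates the value was 0.22. Genes on the opposite strand of Lsr have 155% of its counts. Bsg, the immunoglobulin-family partner of monocarboxylate transporters, measured 313.3 to 440.8 CPM in melanoma, where only replicate 4 exceeded 338.5, and 404.1 to 527.8 CPM in melanoma plus ICI (0.35, SE 0.11). These 3 genes had the smallest p of the interaction in the positive direction, with values of 1.30 for Cldn5, 1.02 for Lsr and 0.81 for Bsg, and edgeR adjusted p of 0.253, 0.0912 and 0.253. In the tumour-free mice their effect had the opposite sign, at -0.66, -0.63 and -0.46. Their melanoma plus ICI levels lay within the control range, which was 25.1 to 59.1 CPM for Cldn5, for 4 libraries of Cldn5, all 5 of Lsr and 4 of Bsg. The top of the Cldn5 range was control replicate 4, and the next control library had 37.5 CPM.

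Vcam1, the adhesion molecule that captures leukocytes on activated endothelium, measured 21.0, 20.4, 24.4, 29.9 and 30.7 CPM in melanoma and 58.7, 34.7, 36.4, 43.8 and 27.9 CPM in melanoma plus ICI (0.67, SE 0.17). Its groups overlapped at replicate 5. Its value was 0.38 with the tissue scores as covariates. Its highest library, melanoma plus ICI replicate 1, had the lowest choroid plexus and meninges scores of its group, at 0.897 and 3.34. The tissue source of the Vcam1 difference was not tested. Icam1, the partner adhesion molecule, rested on 1 library, at 19.6 CPM in melanoma plus ICI replicate 1 where the other 9 libraries had 1.98 to 4.24 CPM. Kdr, the main VEGF receptor, had 8.96 to 17.3 CPM in melanoma and 11.7 to 22.9 CPM in melanoma plus ICI (0.46, SE 0.21).

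Mfsd2a (chromosome 4, 122946850 to 122961188), the lysolipid carrier that supplies docosahexaenoic acid to the brain, went the other way. It measured 27.2, 22.1, 22.3, 25.1 and 26.6 CPM in melanoma and 17.5, 16.5, 24.5, 15.6 and 13.2 CPM in melanoma plus ICI (-0.50, SE 0.12). The order of the libraries was that of the glucocorticoid genes: 4 treated libraries below all melanoma libraries and replicate 3 among them. Without replicate 3 it passed with -0.64 (edgeR adjusted p = 0.00732), and with the tissue scores as covariates it had -0.48. The pericyte genes, markers of the cells that wrap brain capillaries, were higher in 9 of 9 tested members by a median of 0.07, with Vtn (0.41, SE 0.17) and Rgs5 (0.22, SE 0.09) under an unadjusted edgeR p of 0.05, against 2.63% of all genes. Neither they nor another pericyte gene was under that p without melanoma replicate 1 or without melanoma replicate 4. The pericyte median was -0.06 with the tissue scores as covariates and -0.02 without melanoma plus ICI replicate 3.

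**Figure D4:**
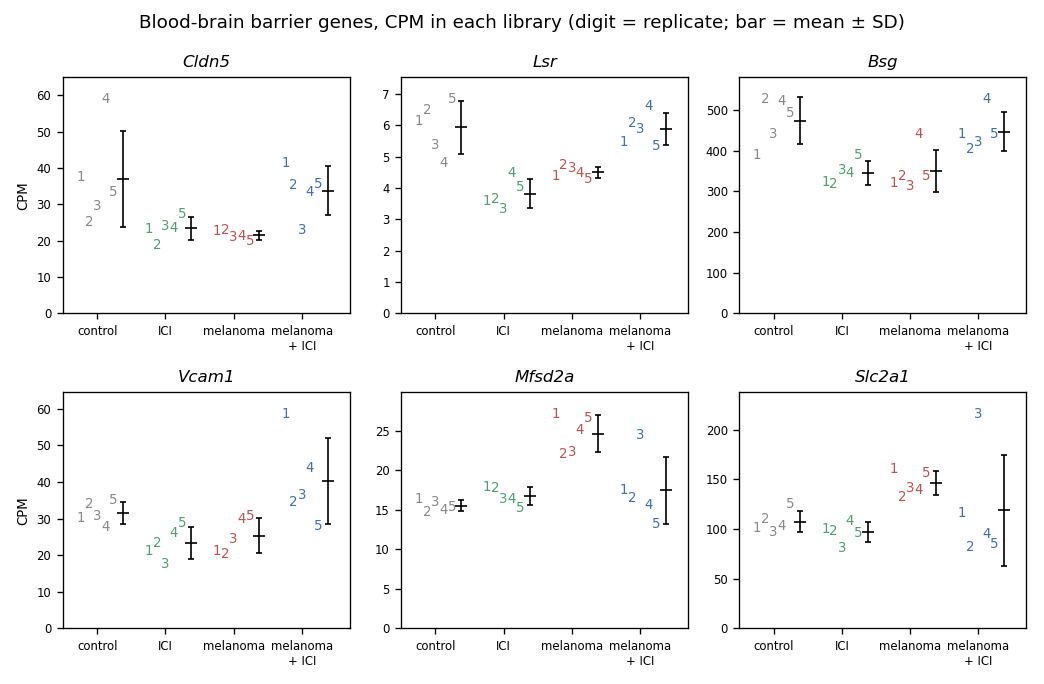
CPM (y axis, from 0) of 6 blood-brain barrier genes in all 20 libraries by group; digits are replicate numbers and black bars are means ± SD over 5 libraries. The means of Cldn5, Lsr and Bsg are lower in ICI and in melanoma than in control, and most melanoma plus ICI libraries lie within the control range, while Mfsd2a and Slc2a1 are high in melanoma and in melanoma plus ICI replicate 3.

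The targets of the antibodies were barely expressed. Pdcd1, which encodes PD-1, had 4 counts in all melanoma libraries together and 12 in melanoma plus ICI, and Ctla4 had 20 and 15. Both were under the count filter, and an exact permutation test on CPM over the 252 splits gave a two-sided p of 0.246 for Pdcd1 and 0.627 for Ctla4, where the smallest p possible is 0.00794. No difference was detected. The summed counts of 8 genes of the T cell receptor complex, CD8 and cytotoxic granules ran from 3 to 10 per library in melanoma and from 2 to 16 in melanoma plus ICI. Gzmb, granzyme B, was at 0 in every melanoma library and had 3 and 4 counts in melanoma plus ICI replicates 4 and 5. Of 23 checkpoint receptors and ligands 14 were tested, 8 higher and 6 lower. The 1 of 14 below an unadjusted edgeR p of 0.05, against 2.87% of all genes lower at that p, was Havcr2, which encodes TIM-3 and is expressed by microglia (2.76 to 3.36 CPM in melanoma, 1.66 to 3.37 CPM in melanoma plus ICI, log2 fold change -0.39, SE 0.16). No checkpoint gene was lower at that p without melanoma replicate 1, without melanoma plus ICI replicate 2 or 4, or with the tissue scores as covariates, and 2 were higher and 2 lower without melanoma plus ICI replicate 3. Cd274, which encodes PD-L1, was at -0.03 (SE 0.23) and its sign changed with the settings. Pdcd1lg2, Cd80 and Cd28 were under the count filter, and Cd86 was at -0.12 (SE 0.22).

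The choroid plexus and meninges scores were higher together with the antigen presentation and myeloid lists. Of 16 genes of MHC class I presentation 15 were higher, by a median of 0.19, and 3 were higher at an unadjusted edgeR p under 0.05, against 2.63% of all genes. That count ran from 1 without melanoma replicate 1 to 7 without melanoma replicate 5. With the tissue scores as covariates 12 were higher and 4 lower, by a median of 0.05, with 1 in each direction at that p. The 3 were endoplasmic reticulum chaperones, which fold many other proteins as well: Pdia3 (0.28, SE 0.10), Calr (0.20, SE 0.09) and Canx (0.16, SE 0.07). Pdia3 measured 138.4 to 163.1 CPM in melanoma and 211.1, 180.9, 144.8, 202.3 and 172.8 CPM in melanoma plus ICI, so replicate 3 again sat among the melanoma libraries. B2m, the invariant class I chain, was at 0.20 (SE 0.16). Of 15 tested genes of MHC class II and border macrophages 10 were higher, by a median of 0.33, and the median was -0.08 with the tissue scores as covariates. With 1 library left out the median ran from 0.203 to 0.455. Lyz2 (0.48, SE 0.18) and H2-Eb1 (1.07, SE 0.43) were the 2 higher at an unadjusted edgeR p under 0.05, against 2.63% of all genes. With the tissue scores as covariates 0 were higher and 1 lower at that p, and the count with 1 library left out ran from 1 to 4.

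Of 20 tested genes of reactive microglia 15 were higher, by a median of 0.18, and 5 were higher at an unadjusted edgeR p under 0.05, against 2.63% of all genes: Tlr2, a sensor of microbial lipids (0.86, SE 0.30), the lysosomal proteases Ctsd (0.34, SE 0.12) and Ctsl (0.27, SE 0.10), Lyz2, and the endosomal protein Cd63 (0.41, SE 0.16). Ctsd measured 161.0, 155.1, 145.5, 202.8 and 167.9 CPM in melanoma and 226.3, 173.8, 215.4, 244.6 and 190.9 CPM in melanoma plus ICI, overlapping through melanoma replicate 4. With the tissue scores as covariates 0 of the 20 were higher and 2 were lower at that p, against 3.97% and 5.31% of all genes, and the list median was 0.07. The median was 0.08 without melanoma plus ICI replicate 1. The homeostatic microglia had 1 gene on each side, Olfml3 higher (0.27, SE 0.11) and the phagocytic receptor Mertk lower (-0.42, SE 0.15), of 25 tested and against 2.63% and 2.87% of all genes. That became 4 higher and 1 lower with the tissue scores as covariates (3.97% and 5.31%), 1 higher and 3 lower without melanoma plus ICI replicate 3, and 0 higher and 1 lower without melanoma replicate 1. Mertk had 49.9 to 65.6 CPM in melanoma, 32.2 to 38.5 CPM in 4 treated libraries and 60.8 CPM in replicate 3. The microglial markers Aif1 (0.06, SE 0.20) and C1qa (0.08, SE 0.15) were inside their spread.

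Few interferon and cytokine genes differed at an unadjusted p under 0.05. Of 27 tested genes of the type I interferon response 10 were higher and 17 lower, with Ifit3b (-0.35, SE 0.16) the 1 under an unadjusted edgeR p of 0.05, against 2.87% of all genes, and with the tissue scores as covariates 10 were lower and 0 higher at that p, against 5.31% and 3.97% of all genes. The count was 5 lower of 28 without melanoma plus ICI replicate 3 (4.74% of all genes), and 0 without melanoma replicate 3 or 5 or melanoma plus ICI replicate 1, 2, 4 or 5. The median of that list was -0.17, and 0.01 without melanoma replicate 5. Of 17 tested interferon gamma response genes 9 were higher and 8 lower, with 0 under that p, and with the tissue scores as covariates 3 were lower, against 5.31% of all genes, by a median of -0.19. Of 25 tested cytokines, innate sensors and NF-kB genes the 1 under that p was Tlr2, against 2.63% of all genes, with 0 higher in the fit with the tissue scores and 2 without melanoma replicate 4 or melanoma plus ICI replicate 3. Nfkbia, the NF-kB inhibitor, which glucocorticoids also induce, was lower in 3 treated libraries (14.1, 17.0 and 17.5 CPM in replicates 2, 4 and 5) than in melanoma (25.3 to 35.5 CPM), but it had 36.5 and 37.8 CPM in replicates 1 and 3 (-0.31, SE 0.22). In complement, 14 of 21 tested genes were higher and C1s1 alone was under that p (0.56, SE 0.25), against 2.63% of all genes. In the fit with the tissue scores, 0 complement genes were higher and 2 lower at that p (3.97% and 5.31%), and the count with 1 library left out ran from 0 to 3 higher.

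**Figure D5:**
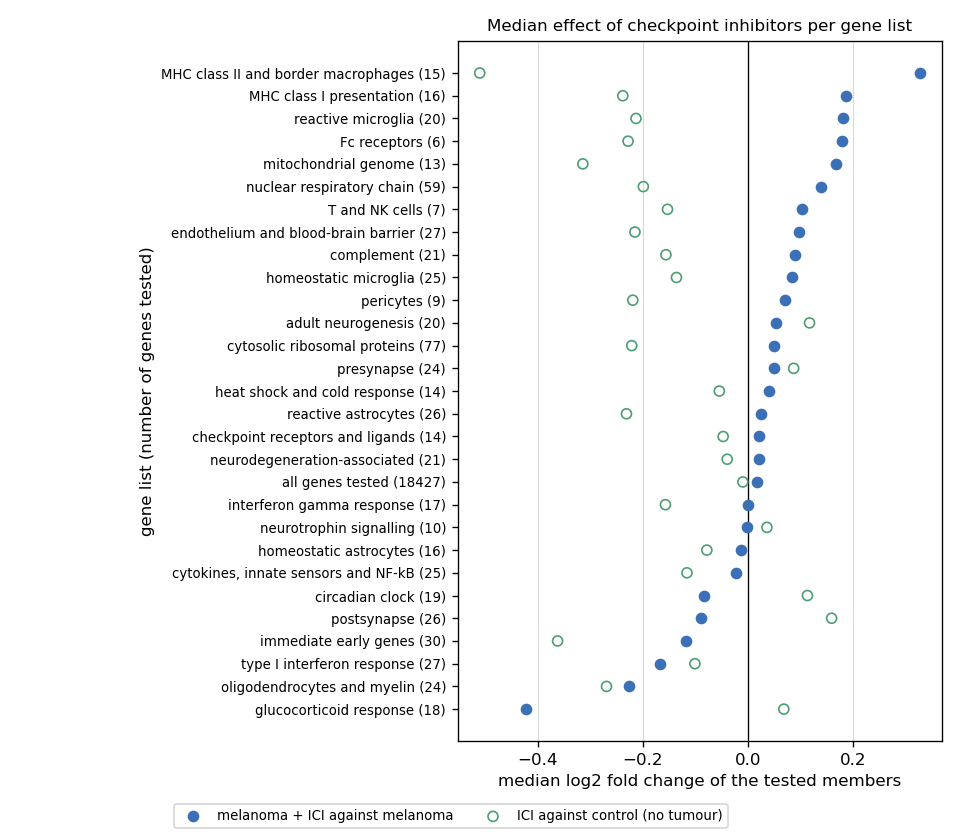
Median log2 fold change (x axis) of the tested members of each pathway and cell type list, region and tissue marker lists left out, and of all genes tested (y axis, number tested in brackets) for melanoma plus ICI against melanoma (filled) and ICI against control (open). Among the lists drawn the glucocorticoid list is lowest in tumour-bearing mice at -0.42 and at 0.07 without a tumour; most immune and vascular lists lie to the right of 0 with a tumour and to the left without one.

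Of 26 tested reactive astrocyte genes 16 were higher and 10 lower, by a median of 0.02, with Fbln5, Aspg and Tm4sf1 higher (0.67, 0.49 and 0.42) and Cd109 lower (-1.12, SE 0.49) at an unadjusted edgeR p under 0.05, against 2.63% and 2.87% of all genes. With the tissue scores as covariates 0 were higher and 2 lower at that p (3.97% and 5.31% of all genes), by a median of -0.05. The 3 higher became 1 without melanoma replicate 1 or 2, and the 1 lower became 0 without melanoma replicate 2 or 4 or melanoma plus ICI replicate 1 or 2. Gfap, the filament protein of reactive astrocytes, was at -0.10 (SE 0.16) and ran from 266.2 to 370.3 CPM in melanoma and from 190.3 to 344.6 CPM in melanoma plus ICI. Of 26 postsynaptic genes 19 were lower, by a median of -0.09, and 1 of them, the scaffold Shank3 (-0.33, SE 0.15), was under that p, against 2.87% of all genes. That count was 6 without melanoma replicate 3 (2.73% of all genes) and 0 without melanoma replicate 1, 2 or 4 or melanoma plus ICI replicate 1 or 4. With 1 library left out the postsynaptic median ran from -0.15 to -0.09. Dlg4, which encodes PSD-95, was at -0.18 (SE 0.09), with 784.6 to 934.4 CPM in melanoma and 706.4 to 801.9 CPM in melanoma plus ICI. None of the 24 presynaptic genes was under that p. Of 30 immediate early genes, which neurons switch on within minutes of activity, 10 were higher and 20 lower, by a median of -0.12, with 0 under that p. With voom 16 of them were lower at that p, against 7.85% of all genes, by a median of -0.48, and with the tissue scores as covariates 4 were lower, against 5.31%, by a median of -0.33. Without melanoma plus ICI replicate 1 the median was -0.38 with 4 lower at that p (2.16% of all genes). Without replicate 3 of that group 3 were lower (4.74% of all genes), and without its replicate 4 the median was 0.03. Fos measured 24.1 to 50.04 CPM in melanoma and 8.23 to 79.1 CPM in melanoma plus ICI, and its sign changed with the settings.

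Myelin genes and respiratory chain genes differed by small amounts. Of 24 oligodendrocyte and myelin genes 23 were lower, by a median of -0.23, with 0 under an unadjusted edgeR p of 0.05, and with the tissue scores as covariates the median was -0.45 and 8 were lower at that p, against 5.31% of all genes. Without melanoma plus ICI replicate 3 the median was -0.40 with 6 lower (4.74% of all genes), and with voom it was -0.49 with 12 lower (7.85%). In tumour-free mice the myelin median was also negative, at -0.27. Myrf, the transcription factor of myelinating cells, measured 97.6 to 130.1 CPM in melanoma, and 50.3, 44.04, 117.1, 87.03 and 66.7 CPM in melanoma plus ICI (-0.57, SE 0.29), so replicate 3 again lay inside the melanoma range. All 59 nuclear respiratory chain genes had higher means in melanoma plus ICI, by a median of 0.14, and 0 were under that p. The size rested on melanoma plus ICI replicate 1, whose score for this list was 6.65 where the other 4 treated libraries had 6.12 to 6.34, and whose share of counts from the mitochondrial genome was 4.28%. Without that library 44 of the 59 were higher and 15 lower, by a median of 0.04. Sdhc, a subunit of succinate dehydrogenase, was the 1 of them whose groups did not overlap (61.7 to 67.3 against 68.1 to 90.0 CPM), beside 0.635% of all genes higher without overlap. In tumour-free mice 56 of the 59 were lower, by a median of -0.20, but without control replicate 4, which had a score of 6.93 and a mitochondrial share of 5.10%, 35 were lower and 24 higher, by a median of -0.01. In the interaction 5 of the 59 were positive at an unadjusted p under 0.05, against 5.99% of all genes, with 3 of the 59 without control replicate 4 and 1 without melanoma plus ICI replicate 1, against 4.98% and 4.95%.

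Of 20 tested genes of adult neurogenesis 12 were higher and 8 lower, by a median of 0.05. At an unadjusted edgeR p under 0.05 0 were higher and 4 lower, against 2.87% of all genes, and with the tissue scores as covariates 1 was lower, against 5.31%. The count of lower genes was 2 without melanoma replicate 1, 3 or 5. Without melanoma plus ICI replicate 3, 3 were higher and 4 lower (4.41% and 4.74% of all genes), and with voom also 3 and 4 (7.05% and 7.85%). The median was -0.06 without melanoma plus ICI replicate 2 and -0.01 without replicate 4 of that group. The 4 were Top2a (-1.34, SE 0.42), Mki67 (-1.18, SE 0.37), Sox4 (-0.28, SE 0.12) and Draxin (-0.82, SE 0.36). Mki67, a marker of dividing cells, measured 5.55, 2.94, 7.89, 1.61 and 6.08 CPM in melanoma and 1.15, 2.24, 2.94, 2.25 and 2.00 CPM in melanoma plus ICI. Its highest values were in melanoma replicates 1, 3 and 5, the striatum-rich libraries, and without the 4 striatum-rich libraries its value was -0.25. Top2a, a topoisomerase of dividing cells, kept -1.06 there. Dcx, the marker of newborn neurons, was at 0.08 (SE 0.23). Of 14 heat shock and cold response genes 8 were higher and 6 lower, by a median of 0.04. The chaperones Hspa1b (-0.68, SE 0.22), Hspa1a (-0.49, SE 0.22) and the cold-inducible Rbm3 (-0.33, SE 0.12) were lower at that p, against 2.87% of all genes.

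The 10 lower and 10 higher genes with the smallest p, at a mean of at least 1 CPM, all had an edgeR adjusted p of 0.825. The first of the lower genes was Thbs4 (chromosome 13, 92751590 to 92794818), a matrix protein secreted by astrocytes, at 35.0, 47.8, 39.6, 25.8 and 35.8 CPM in melanoma and 23.8, 9.13, 20.9, 12.5 and 11.5 CPM in melanoma plus ICI. Its groups did not overlap, with a log2 fold change of -1.24 (SE 0.27), and the value was -1.27 with the tissue scores as covariates. Gpt2, a mitochondrial alanine aminotransferase, measured 81.3 to 95.2 CPM in melanoma and 56.3 to 73.9 CPM in melanoma plus ICI (-0.50, SE 0.11). Sdc4, a cell surface proteoglycan, measured 81.8 to 87.8 CPM in melanoma and 58.3 to 76.6 CPM in melanoma plus ICI (-0.35, SE 0.08). Neither overlapped, and both kept their size with the tissue scores as covariates, at -0.49 and -0.38. The others were Mfsd2a, Hif3a, Foxm1 (-0.83, SE 0.21), Knstrn (-0.82) and Traip (-0.76), which act in cell division, Ralgds (-0.40) and 5830487J09Rik (-0.66). Without the striatum-rich libraries Foxm1 had -0.41 and Knstrn -0.54. Foxm1 also shares exons with overlapping genes that have 101% of its counts.

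The first of the higher genes was Tmem106c (chromosome 15, 97964229 to 97970286), a membrane protein, at 25.9, 25.1, 27.6, 26.9 and 24.8 CPM in melanoma and 36.5, 29.6, 30.5, 33.2 and 31.2 CPM in melanoma plus ICI. Its groups did not overlap, with a log2 fold change of 0.31 (SE 0.07), and it had 0.29 with the tissue scores as covariates. Nsdhl, an enzyme of cholesterol synthesis, measured 15.6 to 17.4 CPM in melanoma and 19.7 to 25.2 CPM in melanoma plus ICI (0.41, SE 0.10), also without overlap. Slitrk1, a neuronal adhesion protein, measured 71.6 to 80.6 CPM in melanoma and 84.7 to 103.5 CPM in melanoma plus ICI (0.31, SE 0.08). The lysosomal enzymes Fuca2 (0.33) and Glb1 (0.38), the endosomal sorting protein Vps26c (0.26), Nipal2 (0.63), Tmem51 (0.47), Vcam1 and 2810002D19Rik (0.48) complete the 10. The last lies over exons of genes on the opposite strand with 4290% of its counts.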

How the data were processed

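Per the file headers, the authors deposited 1 table of raw read counts per library, with 49671 genes and their coordinates. Per the submitters' processing notes the tools were STAR 2.5.2b and DESeq2 1.16.1. Genome build, annotation, counting program and strand use are not given in the sources used here. Of the identifiers 49412 occur in GENCODE M21 (GRCm38), which gave the symbols, and 45214 have the same start and end there. The 345 identifiers without a symbol hold 0.0702% of the counts.

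Groups came from the titles. The members and gene lists were chosen with earlier results of these data known. Genes were filtered with filterByExpr (minimum count 10, total 15), scaled by TMM (factors 0.955 to 1.043) and fitted to all 20 libraries with edgeR 4.0.16 in R 4.3.3, 1 mean per group, robust quasi-likelihood, Benjamini-Hochberg adjustment over 18427 genes at 0.05. Log2 CPM used a prior count of 2. The test was checked on simulated data for melanoma plus ICI against melanoma with 18223 genes, where edgeR recovered 61% of changes of 1 and 94% of changes of 2 on the log2 scale, with 9 false calls. The simulated counts varied independently between genes, without shared tissue differences or a library that stood apart. The shares recovered therefore do not carry over to the real libraries. Named genes are the 10 with the smallest p in each direction (symbol, mean of at least 1 CPM), the gene with the smallest p of all, the 3 leading genes per direction of the interaction, the checkpoint genes, leading members per list and fixed markers. All members of the glucocorticoid list, the genes called without melanoma plus ICI replicate 3, and Slc2a1, Top2a, Mki67 and Per1 were named after their values were seen, as were the other members given from a list.

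Alternatives were DESeq2 size factors, DESeq2 1.42.0, limma 3.58.1 voom with quality weights, no filter, a mean of at least 1 CPM, only the groups compared, a replicate block, 4 tissue scores as covariates and leaving out each library. Added after the data were seen were dentate gyrus and CA1 scores as covariates, leaving out melanoma plus ICI replicates 1 and 3, and leaving out the 4 libraries with a striatum score above 5. Each library is 1 mouse per the labels. What the library numbers stand for is not stated, so no batch could be compared.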

Additional observations from a re-analysis of the deposited data

Results flagged for a closer look

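In each of 124 sets of 5 libraries of 1 group, 2 for each of 62 genes, the gap of the most distant library to its nearest neighbour was compared with the range of the 5, and it exceeded Dixon's critical value of 0.71 in 18. Chance gives about 1 in 20. Of the 18, 10 were melanoma plus ICI replicate 3. It was high for Hif3a (15.6 CPM), Plin4 (21.6), Arrdc2 (39.95), Pdk4 (21.02), Sult1a1 (12.12), Ciart (34.22), Etnppl (46.1), Slc2a1 (216.1) and Kirrel2 (18.15), and low for Gfap (190.3). Genes were partly named because of this library, so the share is a description.

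Melanoma replicate 1 was high for Hif3a (25.1 CPM), Plin4 (47.72) and Ptcd1 (37.08). Melanoma replicate 2 was low for Nsdhl (15.62 CPM) and melanoma replicate 4 high for Bsg (440.8 CPM). Melanoma plus ICI replicate 4 was high for Glb1 (26.73 CPM) and low for Sirpa (294 CPM), and melanoma plus ICI replicate 1 was high for Mt2 (45.7 CPM).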

How the results depend on the processing

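For melanoma plus ICI against melanoma, the number of genes past the adjusted threshold was 0 with edgeR and 25 with voom, 7 with dentate gyrus and CA1 scores as covariates, 25 without melanoma plus ICI replicates 1 and 3, 1 without the striatum-rich libraries, and 0 to 12 when 1 library was left out. The count at an unadjusted p under 0.05 was 1013, and 2746 with voom, 1605 with no filter, 1710 with 4 tissue scores, 1738 with dentate gyrus and CA1 scores, 1663 without melanoma plus ICI replicates 1 and 3, and 727 to 1702 when 1 library was left out. For the interaction 0 genes passed with edgeR, 47 with DESeq2, 19 with voom, 3 with dentate gyrus and CA1 scores, 17 without melanoma plus ICI replicates 1 and 3 and 0 to 11 when 1 library was left out, and 1892 genes had an unadjusted p under 0.05, 1323 to 2908 when 1 library was left out. The highest of these was without control replicate 2. Replicate numbers did not pair the libraries: the correlations of same-numbered deviations were 0.071, -0.197, -0.018, 0.396 and -0.167, and with the number as a block 0 genes passed and 972 had an unadjusted p under 0.05.

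Of 1300 values for 62 genes, 1214 kept direction and side of the threshold, 48 newly passed and 38 changed sign, in 12 genes. Without melanoma plus ICI replicates 1 and 3 the log2 fold changes were 0.211 for Cd274, -0.01 for Sirpa, 0.053 for Gfap, -0.025 for Nr3c1, -0.006 for C1qa, -1.058 for Fos and -0.063 for Aif1. With voom they were 0.099 for Cd274, -0.858 for Fos and -0.005 for Aif1. With 4 tissue scores they were -0.012 for Dcx, -0.772 for Fos and -0.315 for Cd74. With dentate gyrus and CA1 scores they were 0.121 for Gfap, -0.121 for Dcx, -0.204 for Fos and 0.102 for Nr3c2. Without the striatum-rich libraries they were 0.098 for Cd274, -0.16 for Fos and 0.1 for Cdkn1a, and with the replicate block -0.152 for Fos. With 1 library left out the ranges were -0.294 to 0.051 for Cd86, -0.164 to 0.154 for Cd274, -0.157 to 0.029 for Gfap, -0.006 to 0.214 for Dcx, -0.517 to 0.275 for Fos and -0.344 to 0.165 for Cdkn1a. The cause of these changes was not tested. Of 780 list medians 26 moved by more than 1 SD.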
